A study of Mus musculus with 16 samples.

Results

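The genes described here encode 10 subunits of the general transcription factor TFIID: Taf4a and its paralogue Taf4b, Taf5, Taf6, Taf7, Taf9b, Taf10, Taf12, Taf13 and Tbp. They were taken by name from a table of 27807 genes, and all 10 were found and had enough reads to be tested. Poly-A RNA-seq was performed on 16 mouse libraries, in 8 groups of 2 libraries each. Both genotypes, WT (labelled Taf4+/+) and Taf4a-/- (labelled Taf4-/-), were sampled at 4 stages. These were ES, pluripotent embryonic stem cells grown with LIF on inactivated embryonic fibroblast feeders, and 3 stages of embryoid bodies, the floating aggregates formed by differentiating ES cells. EB4 was collected before retinoic acid (RA) was added, EB5 after the first day of RA, and EB8 later in the RA treatment, when the labels call the cells neural precursors. The protocol leads to glutamatergic neurons. The 2 lines of each genotype were derived independently from blastocysts of crosses between heterozygous C57Bl6J mice, and each library was made from a single line. The null allele lacks exons 11 and 12 of Taf4a in every cell of the mutant lines, at every stage. Below, WT and Taf4a-/- mean libraries that carry these labels.

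TFIID consists of Tbp, which contacts the TATA element of promoters, and of associated factors called TAFs, and it nucleates the assembly of RNA polymerase II at the start of genes. Many TAFs carry a histone fold and enter the complex as fixed partners: TAF4 or its paralogue TAF4B with TAF12, TAF6 with TAF9 or its paralogue TAF9B, TAF11 with TAF13, and TAF10 with TAF3 or TAF8. TAF5, TAF6, TAF9, TAF4 and TAF12 make up a core on which the other subunits are placed. TAF10, TAF12 and TAF9B also belong to SAGA, a coactivator that modifies histones. TAF4B is best known from the ovary and the male germ line.

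The sequence removed from Taf4a is shown first, because it decides what a read count can say about the mutant. Taf4a lies on the minus strand of chromosome 2 (chr2:179646851-179711351, NCBIM37), and its longest annotated transcript has 15 exons and 4422 bases. Exon 11 spans chr2:179658684-179658814 (131 bases) and exon 12 spans chr2:179657659-179657784 (126 bases), and both are coding. Read on the strand of the gene, 5′ to 3′, they are as follows.
Taf4a exon 11: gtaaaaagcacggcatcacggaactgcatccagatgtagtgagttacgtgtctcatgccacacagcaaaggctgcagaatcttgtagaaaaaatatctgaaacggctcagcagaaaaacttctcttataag
Taf4a exon 12: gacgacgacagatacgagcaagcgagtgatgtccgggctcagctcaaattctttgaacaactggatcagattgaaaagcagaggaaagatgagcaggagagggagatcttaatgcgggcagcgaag
Together they hold 257 bases, which is 5.81% of the transcript, and 257 leaves a remainder of 2 when divided by the codon length of 3. The remaining exons still yield reads for the gene, so a count of reads over the whole gene does not test whether the exons are present.

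Taf4a transcripts were as abundant in the mutant libraries as in WT or more so. The normalised read counts (reads of a gene divided by a scaling factor for the library) in WT were 1858 and 1752 at ES, 1959.6 and 1939 at EB4, 1778 and 1756 at EB5, and 1591 and 1939.7 at EB8. In Taf4a-/- they were 2400.0 and 2388 at ES, 2369 and 2056 at EB4, 2284 and 2002 at EB5, and 2341 and 1973 at EB8. At each stage the 2 mutant values exceeded the 2 WT values. The difference, on the log2(normalised count + 1) scale used for every fold change here, was 0.41 at ES, 0.18 at EB4, 0.28 at EB5 and 0.29 at EB8 (SE 0.15, limma, n = 2 libraries against 2). The adjusted p-values, by the Benjamini-Hochberg method over 16124 tested genes with a threshold of 0.05, were 0.335, 0.524, 0.336 and 0.194, so that no stage passed. The order of the 8 group means ran from ES in Taf4a-/- (2394 ± 8.55, SD, n = 2) down to EB8 in WT (1765 ± 247). All 4 mutant groups came before all 4 WT groups. Neighbours in this order mostly overlapped within a genotype, and the lowest mutant group, EB5 (2143 ± 199), did not overlap with the highest WT group, EB4 (1949 ± 14.8). Over the course Taf4a varied little: from ES to EB8 the log2 change was -0.04 (95% interval -0.37 to 0.29) in WT and -0.16 (-0.49 to 0.18) in the mutant.

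The libraries differed in ways that touch these genes. Depth, in reads recovered from the normalised values, was 32631020 to 40711826 in the 4 ES libraries and 22442118 to 27685306 in the 12 embryoid body libraries. Stage and depth therefore cannot be told apart between ES and later stages. The ES libraries may also be a separate sequencing batch, which could not be told apart from stage in these comparisons either. A member had between 50 and 6956 reads in a library. The median level of X-linked genes was raised (0.35 to 0.56 on the log2 scale, against -0.20 to -0.07 elsewhere) in 5 libraries, namely replicate 2 of Taf4a-/- at each stage and replicate 2 of WT ES. The last had 4.0 normalised counts of the Y-linked Eif2s3y, against 841 to 2248 in the other 7 WT libraries. The WT replicate numbers therefore do not follow a line from ES to the embryoid bodies. No WT embryoid body library had a raised X level or lacked Eif2s3y (841 to 1323), so none matched WT ES replicate 2. If there were only 2 WT lines, these embryoid body libraries would all come from the other line. The Taf4a-/- libraries had 1.9 to 92.1 normalised counts of Eif2s3y. At EB4, EB5 and EB8 Y-linked expression and genotype therefore cannot be told apart. Leaving WT ES replicate 2 out ended no call of a member. Taf9b is the only member on the X chromosome. The 8 autosomes that hold the other members stayed between -0.10 and 0.11 in all 16 libraries. Chromosomes 8 and 11, which hold no member, also set libraries apart. The chromosome 8 level was 0.38 to 0.43 in replicate 1 of WT EB4, EB5 and EB8 (-0.11 to 0.04 in the other 13 libraries). That of chromosome 11 was 0.14 to 0.22 in replicate 1 of Taf4a-/- at each stage (-0.12 to 0.01 in the other 12). Within Taf4a-/- and within the WT embryoid bodies, libraries of the same number also deviated together over all genes, so that results whose call changed when the number was added to the fit there are given with that blocked adjusted p.

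**Figure D1:**
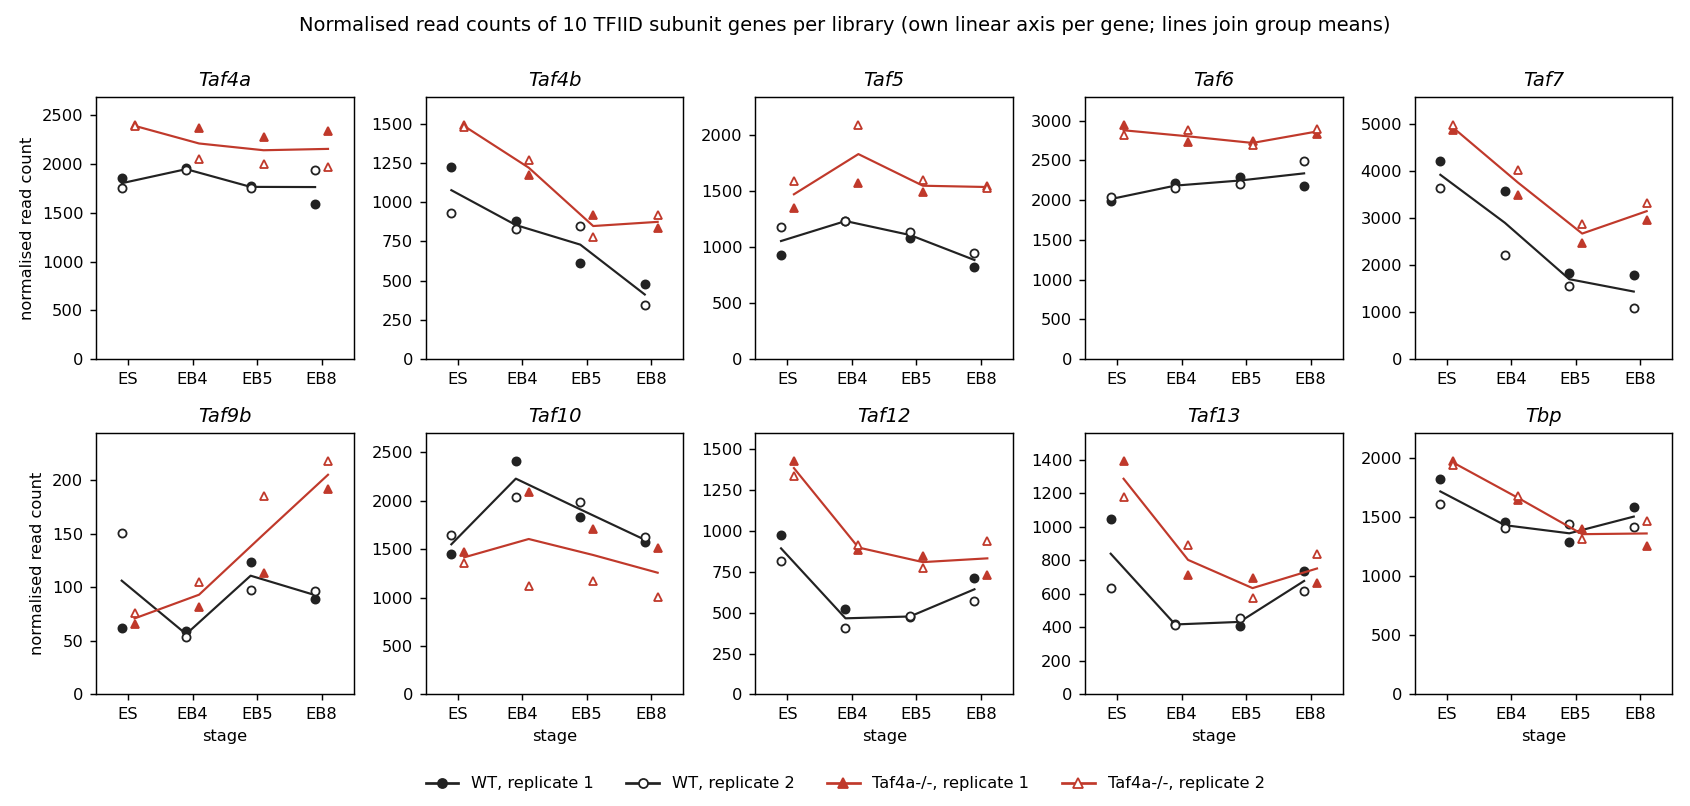
Normalised read counts (vertical axes, linear, from 0) of the 10 genes at the 4 stages, with a point for each library and lines through the means of 2. Taf4a, Taf5, Taf6 and Taf12 have both Taf4a-/- points above both WT points at every stage, whereas Taf10 lies at or below WT.

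The comparison of Taf4a-/- with WT at each stage asks how the other subunits stood when the targeted gene was mutated. At ES 0 of 10 members passed the threshold in limma, where 0% of all tested genes did, although 5 members and 1846 genes had an unadjusted p under 0.05. DESeq2 called 2 members at ES. The share of all genes called was not computed for DESeq2 or the other alternative fits, so their counts of members have no background beside them. edgeR gave the same number of calls as limma here and in each of the 14 comparisons made. At EB4 2 members were higher in the mutant, Taf12 and Taf13 (6.12% of all genes were called, 2.75% as higher). At EB5 0 members passed in limma (4.34% of all genes), while DESeq2 called 1. There 5 members and 3342 genes had an unadjusted p under 0.05 in limma. At EB8 3 members were higher, Taf4b, Taf5 and Taf7 (22.9% of all genes called, 10.4% as higher). At no stage was a member called lower (0%, 3.37%, 2.17% and 12.5% of all genes were, at ES, EB4, EB5 and EB8). The median log2 difference of the 10 members was 0.44, 0.46, 0.34 and 0.33 at ES, EB4, EB5 and EB8, against -0.0033, -0.0042, -0.0080 and -0.029 over all genes tested.

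The comparisons were also made without the libraries that stood apart. Leaving out the 3 WT libraries with a raised chromosome 8 level leaves 1 WT library at each embryoid body stage, so calls between genotypes there cannot be judged from it. Leaving out the 4 mutant libraries with a raised chromosome 11 level leaves 1 mutant library at each stage, so calls between genotypes cannot be judged from it either. The log2 differences of Taf4b, Taf5 and Taf7 at EB8 were then 1.17, 0.79 and 1.26, against 1.10, 0.80 and 1.17 with all libraries. With the replicate number in the fit 2 passed at EB5, Taf7 and Taf12 (0 without it), and 0, 3 and 4 at ES, EB4 and EB8. The share of all genes called was not computed for this fit either, so these counts have no background beside them.

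Counted without a test, both mutant values were above both WT values for 8 of 10 members at ES, 8 at EB4, 6 at EB5 and 7 at EB8 (19.0%, 25.3%, 26.7% and 30.4% of all genes). Taf10 was the only member with both mutant values below both WT values, which it had at EB5 and EB8 (28.1% and 33.5% of all genes). At ES and EB4 this held for 0 members (20.7% and 26.6%). At ES the exceptions among the members were Taf9b and Taf10. Taf4a, Taf5, Taf6 and Taf12 were above WT at each of the 4 stages, a pattern shared by 3.73% of the genes tested. These 4 encode core subunits, but the pattern did not cover the core. Taf4b and Taf9b, paralogues of core subunits, did not show it. The more abundant identifier of Taf9, another core subunit, had 1348 and 1445 normalised counts in WT EB8 and 1019 and 1257 in mutant EB8.

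**Figure D2:**
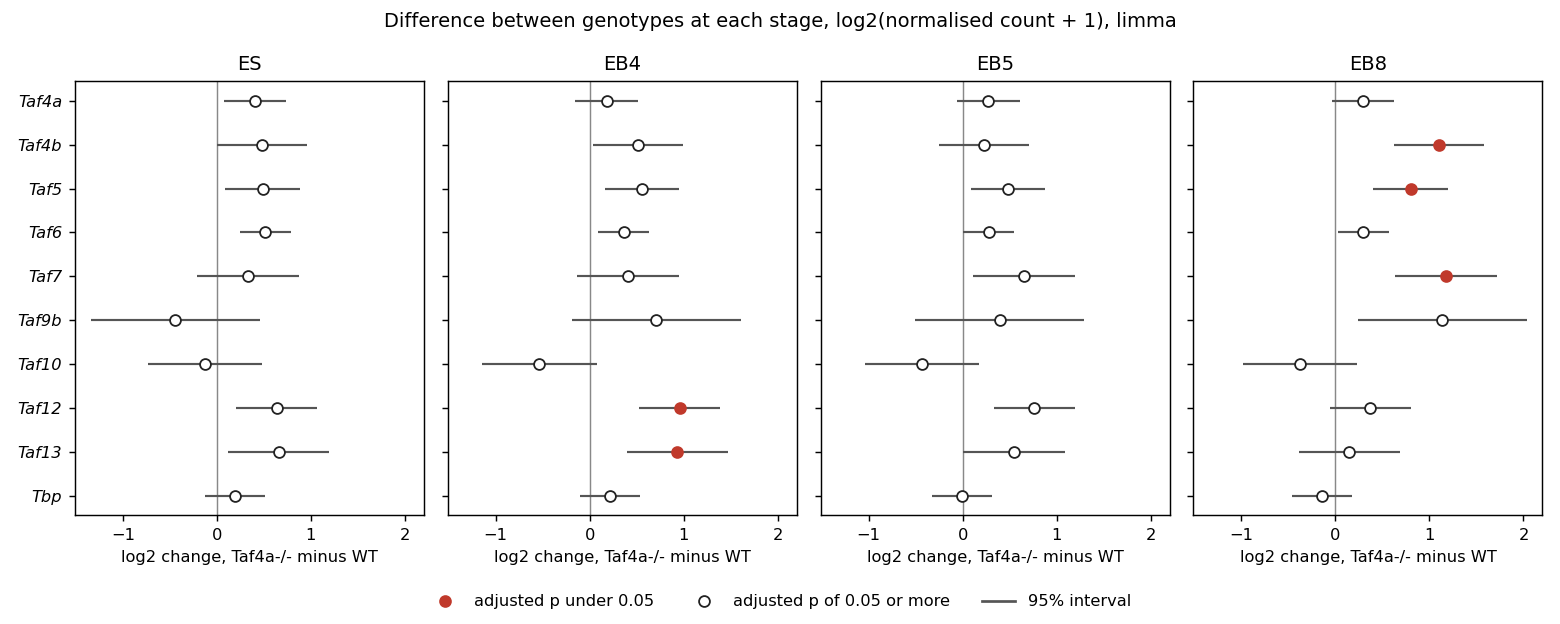
Log2 difference between Taf4a-/- and WT (horizontal axes) for each gene at each stage, with unadjusted 95% intervals, filled red where the adjusted p was under 0.05. Filled points are Taf12 and Taf13 at EB4 and Taf4b, Taf5 and Taf7 at EB8.

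Levels of cell type markers in the libraries also differed between genotypes, with calls at the embryoid body stages only. Over all genes tested 0%, 6.12%, 4.34% and 22.9% were called in either direction at ES, EB4, EB5 and EB8. Of 8 pluripotency markers, which include Pou5f1, Nanog and Zfp42, 0, 2, 3 and 6 were called higher in the mutant at these stages. Their summed level lay between 92607 and 108012 normalised counts in WT ES and between 5364 and 7063 in WT EB8. In the mutant it lay between 119129.5 and 122959.6 at ES and between 26884 and 26906 at EB8. Of 7 neural progenitor markers, which include Pax6 and Nes, 0, 1, 2 and 5 were called lower, with sums of 27906 to 30484 in WT EB8 and 4950.2 to 5021 in the mutant, where Fabp7 was at or under 3 reads. Of the feeder fibroblast markers 0 of 7 tested were called at any stage in limma, but their sum was 1058.5 to 2733 in WT ES and 213 to 505 in mutant ES, with Lum at or under 3 reads. Of 3 neuron markers Tubb3, a neuronal tubulin, was called higher in the mutant at EB4 and at EB5, and all 3 (Tubb3, Dcx and Elavl3) were called lower at EB8. Their sum was 2452 to 2634 in WT ES and 4398 to 4556 in mutant ES, but 12356 to 15956 in WT EB8 and 444 to 936 in mutant EB8. Of 5 endoderm markers tested 0, 1, 1 and 2 were called lower at the successive stages (Dab2 at EB4, Foxa2 at EB5, and Sox17 and Foxa2 at EB8). Their sum was 306 to 446 in WT ES and 134.5 to 212 in mutant ES, 925 to 1060.5 and 260.3 to 539 at EB4, 2124 to 2986 and 933 to 1568 at EB5, and 2000.0 to 2595 and 1262 to 1382 at EB8. The part of these cell types in the differences of the members was not tested. In such bulk samples fewer cells of a type and less RNA per cell cannot be told apart.

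Taf4b, the paralogue that can enter the complex in the place of Taf4a, fell along the course in both genotypes and was 2.15-fold higher in the mutant at EB8. In WT it had 1223 and 929 normalised counts at ES, 882 and 826 at EB4, 612 and 847 at EB5, and 479.9 and 343 at EB8. In Taf4a-/- it had 1490.1 and 1479 at ES, 1173 and 1266 at EB4, 919 and 777 at EB5, and 832 and 916 at EB8. The genotypes did not overlap at ES, EB4 and EB8 and overlapped at EB5. The log2 difference was 0.48, 0.51, 0.23 and 1.10 at the successive stages (SE 0.22), and EB8 alone passed (adjusted p = 0.0040, limma), also with any single library left out. Without the 5 libraries with a raised X level, which leaves 1 mutant library at EB8, the log2 difference there was 1.03 and the call was lost.

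Between ES and EB8 the log2 change of Taf4b was -1.39 (SE 0.22, adjusted p = 0.000323, limma) in WT and -0.76 (adjusted p = 0.0166) in Taf4a-/-. The last step set the genotypes apart in the values: from EB5 to EB8 Taf4b fell by 0.83 in WT (adjusted p = 0.0324) and changed by 0.05 in the mutant (95% interval -0.43 to 0.53). The difference of the changes between genotypes was 0.87 for that step (SE 0.31, unadjusted p = 0.0156, adjusted p = 0.317) and 0.63 for the whole course (95% interval -0.05 to 1.30, adjusted p = 0.233), and neither passed. The call in WT from EB5 to EB8 was lost without WT EB5 replicate 2 (adjusted p = 0.191) or WT EB8 replicate 2 (0.251). The mutant call over the whole course was lost without either ES library (0.0755 and 0.0701) or without EB8 replicate 1 (0.0859).

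To set Taf4a and Taf4b on a common scale, counts were divided by the exon length of each gene (4633 and 5158 bases). Taf4b then made up 34.7% ± 3.47 (SD, n = 2) of the 2 genes together in WT ES, 28.2% ± 0.796 at EB4, 26.9% ± 4.68 at EB5 and 17.5% ± 5.38 at EB8. In Taf4a-/- its share was 35.8% ± 0.0424, 33.2% ± 3.42, 26.2% ± 0.496 and 26.8% ± 3.70. Each library had more Taf4a than Taf4b per kb. The shares of the genotypes overlapped at ES and EB5 and did not at EB4 and EB8, where they differed by 4.96 and 9.31 percentage points. The summed level per kb was 598 ± 56.5 in WT ES and 461 ± 34.5 in WT EB8, against 805 ± 3.40 and 635 ± 44.8 in the mutant. It was higher in both mutant libraries than in both WT libraries at each stage. With 2 libraries in each group an exact permutation test cannot give a two-sided p under 0.333, which is what it gave for each of these differences without overlap.

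**Figure D3:**
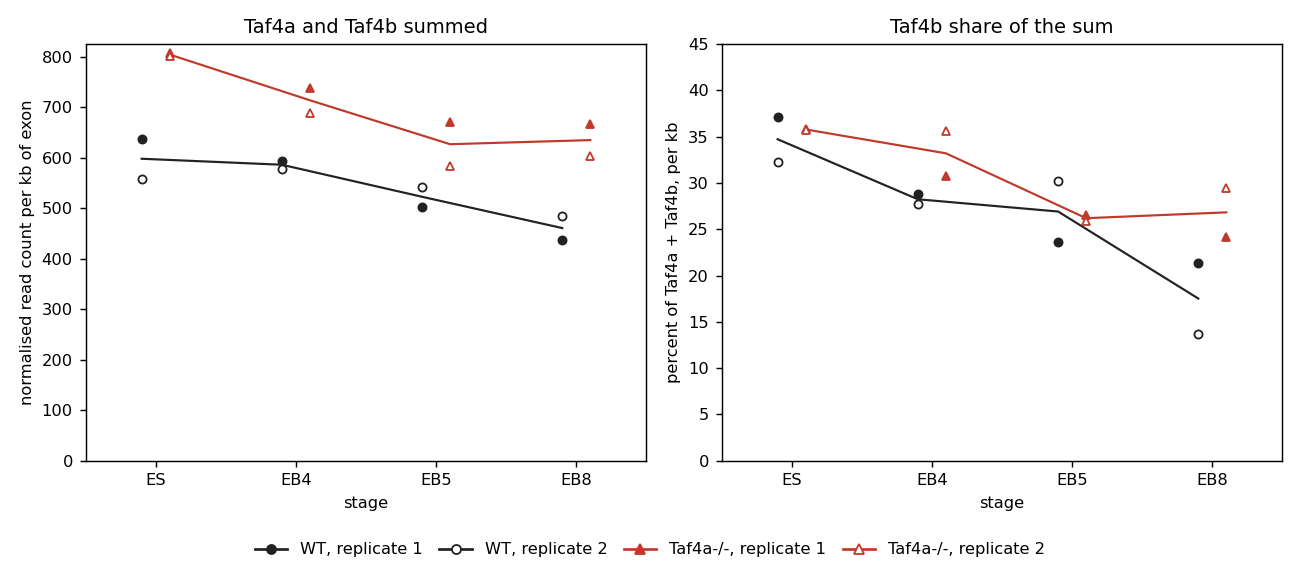
Summed normalised read count of Taf4a and Taf4b per kb of exon (left) and the percent of it due to Taf4b (right) in each library by stage, with lines through the means of 2. The sum lies higher in Taf4a-/- at each stage, and the Taf4b share in WT EB8 (13.7% and 21.3%) lies below all other libraries.

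Taf5 and Taf6 encode the scaffold of the core, a WD40-repeat protein and a histone-fold protein. Taf5 had 925 and 1182 normalised counts in WT ES, 1229 and 1234 at EB4, 1080.3 and 1133 at EB5, and 818 and 949.7 at EB8. The mutant values were 1347 and 1593, 1571 and 2086, 1492 and 1601, and 1544 and 1526. No stage showed overlap, and the highest WT value of any stage (1234) was below the lowest mutant value (1347). The log2 difference was 0.49, 0.56, 0.48 and 0.80 (SE 0.18) and passed at EB8 (adjusted p = 0.0082, limma), but not without WT EB8 replicate 1 (0.0638). At EB4 its adjusted p was 0.0905, and 0.0471 in the blocked fit. Taf5 passed in no stage comparison of either genotype: from ES to EB8 its change was -0.25 in WT and 0.07 in the mutant.

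Taf6 had the narrowest range of the members over the 16 libraries (1.48-fold from lowest to highest, followed by Taf4a with 1.51-fold), with 1982 to 2491 normalised counts over the 8 WT libraries and 2699 to 2941 over the 8 mutant libraries. In WT it had 1982 and 2042 at ES, 2217 and 2146 at EB4, 2293 and 2197 at EB5, and 2180.0 and 2491 at EB8. In Taf4a-/- it had 2941 and 2814, 2726 and 2878, 2738 and 2699, and 2828 and 2898. As with Taf5, the 2 sets of 8 libraries did not overlap at all. The log2 differences were 0.52, 0.36, 0.28 and 0.30 (SE 0.12), each with an unadjusted p under 0.05 and none with an adjusted p under it (0.135, 0.106, 0.232 and 0.106 in limma). DESeq2 on the recovered reads called Taf6 higher at ES (adjusted p = 0.000495), EB4 (0.0114) and EB8 (0.0248).

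Taf12, the histone-fold partner of Taf4a and Taf4b, was lowest in WT at EB4 and EB5. Its normalised counts in WT were 974 and 815 at ES, 523 and 409.6 at EB4, 477 and 478 at EB5, and 713 and 575 at EB8. In Taf4a-/- they were 1431 and 1340.1, 887 and 912, 848 and 772, and 729 and 937. The genotypes were separate at each stage, by a narrow gap at EB8 (713 and 729). The log2 difference was 0.64, 0.96, 0.76 and 0.37 (SE 0.20), and EB4 passed (adjusted p = 0.0193, limma) while EB5 fell just short (0.0511) and passed in the blocked fit (0.0239). The EB4 call was lost without WT EB4 replicate 2 (0.103) or without either mutant library (0.0531 and 0.170).

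Taf13, the partner of Taf11 at the edge of the complex next to Tbp, followed Taf12 closely. WT had 1046 and 632 normalised counts at ES, 419.8 and 415 at EB4, 407 and 458 at EB5, and 735 and 618 at EB8. Taf4a-/- had 1394 and 1178, 714 and 891, 695 and 573, and 667 and 835. The genotypes overlapped at EB8 only. The log2 difference was 0.66, 0.93, 0.55 and 0.15 (SE 0.25), and EB4 passed (adjusted p = 0.0468, limma), a call that each of the 4 libraries could end by being left out (adjusted p 0.0674 to 0.325) and that no filter on low counts ended as well (0.0699).

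From ES to EB4 both genes fell in WT, Taf12 by 0.94 (adjusted p = 0.0090, limma) and Taf13 by 0.96 (0.0218), and these were the only members to pass in that step (16.5% of all genes were called, 7.57% as lower). In the mutant the same step gave -0.62 (adjusted p = 0.0991, limma) and -0.68 (0.136). There 0 members passed in limma (3.50% of all genes), and DESeq2 called 1. In limma 2 members and 3443 genes had an unadjusted p under 0.05 in that step. The WT call of Taf12 was lost without WT EB4 replicate 2 (0.0672). That of Taf13 was lost without WT ES replicate 1 (0.130) or either EB4 library (0.0742 and 0.0871). Over the 16 libraries Taf12 and Taf13 had the highest Pearson correlation among the members (r = 0.95), followed by Taf4b and Taf7 (r = 0.90). These are descriptions over libraries that share their groups, depth and scaling.

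**Figure D4:**
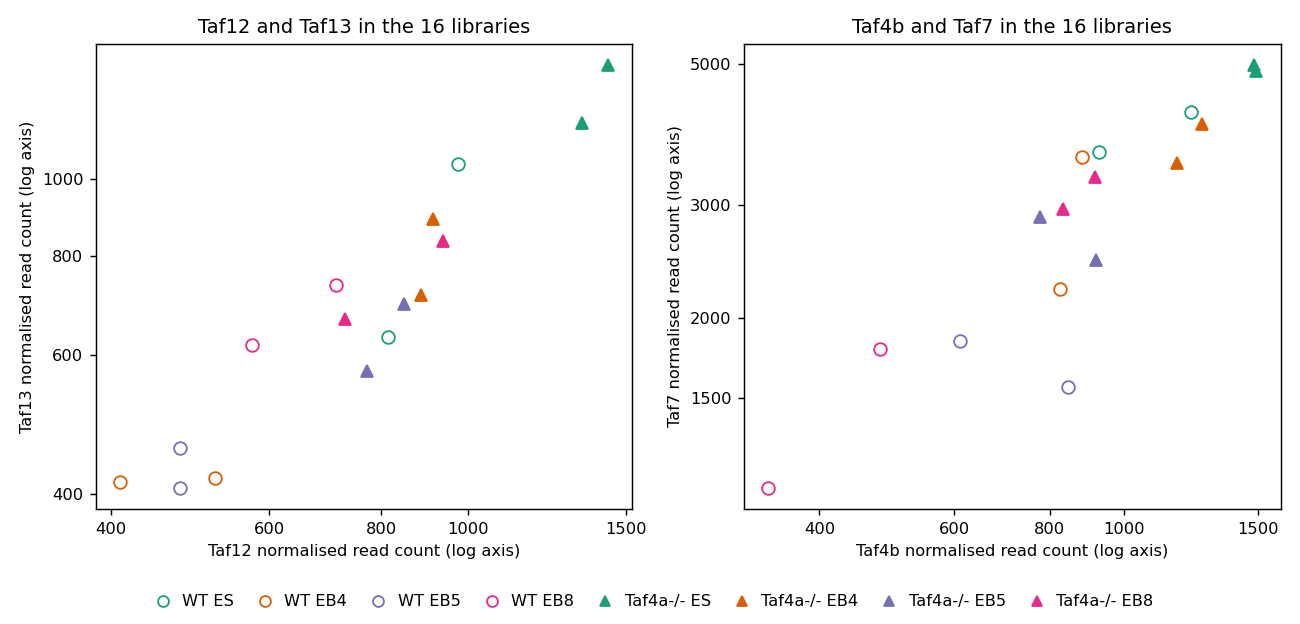
Normalised read counts of Taf12 against Taf13 (left) and of Taf4b against Taf7 (right) in the 16 libraries, both on log axes, coloured by stage with open circles for WT and filled triangles for Taf4a-/-. WT EB4 and EB5 lie lowest for Taf12 and Taf13, and WT EB8 replicate 2 lies lowest for Taf4b and Taf7.

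As these 2 genes varied together, their promoters are shown, from 250 bases before to 50 bases after the start of the gene (RefSeq, GRCm38.p6; 8 of the 10 members had an entry, and Taf4b and Taf7 had none). Capitals mark the motif TATAAA, the motif CCAAT and an ETS core spelled CCGGAAG. These were searched on both strands, and no match overlaps another here.
Taf12 promoter, chr4:132274125-132274424, plus strand: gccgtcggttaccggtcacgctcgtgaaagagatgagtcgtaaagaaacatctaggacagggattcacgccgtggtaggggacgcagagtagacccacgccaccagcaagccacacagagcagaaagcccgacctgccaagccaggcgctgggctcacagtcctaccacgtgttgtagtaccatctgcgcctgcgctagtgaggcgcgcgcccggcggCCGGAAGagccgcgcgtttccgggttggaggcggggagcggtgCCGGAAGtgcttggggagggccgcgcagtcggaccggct
Taf13 promoter, chr3:108571449-108571748, plus strand: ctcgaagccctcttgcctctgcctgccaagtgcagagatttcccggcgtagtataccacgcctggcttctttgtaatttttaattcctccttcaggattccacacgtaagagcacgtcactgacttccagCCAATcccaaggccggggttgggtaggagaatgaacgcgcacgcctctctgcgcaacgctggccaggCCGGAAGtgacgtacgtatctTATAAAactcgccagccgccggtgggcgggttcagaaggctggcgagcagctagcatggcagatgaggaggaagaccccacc
Taf12 holds CCGGAAG at -32 and at 12 from the start, and Taf13 holds it at -53, with CCAAT at -120 and TATAAA at -32. CCGGAAG, which factors of the ETS family recognise, occurred in none of the other member promoters with an entry and in 8.86% of 32851 mouse promoters of the same length. CCAAT occurred in 37.4% and TATAAA in 13.6% of these mouse promoters. Among the other members with an entry Taf4a held CCAAT, and Taf5 and Taf6 held TATAAA. Whether any motif bears on the likeness of Taf12 and Taf13 was not tested.

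Taf7 encodes a subunit that binds TAF1 and restrains its enzymatic activity, and it followed Taf4b. WT had 4205 and 3630.0 normalised counts at ES, 3575 and 2221 at EB4, 1838 and 1558 at EB5, and 1787 and 1083 at EB8. Taf4a-/- had 4861 and 4972, 3495 and 4017, 2461 and 2875, and 2965 and 3324. The genotypes overlapped at EB4 only. From ES to EB8 Taf7 fell by 1.49 in WT (SE 0.25, adjusted p = 0.000478, limma), the largest fall of a member in either genotype. In the mutant the change was -0.65 (adjusted p = 0.0584), which passed in the blocked fit (0.0051). In WT the blocked fit also called the steps from ES to EB4 (-0.47, adjusted p = 0.0397, against 0.213 unblocked) and from EB4 to EB5 (-0.74, 0.0148 against 0.156). The log2 difference between genotypes was 0.33, 0.41, 0.65 and 1.17 (SE 0.25), and EB8 passed (2.26-fold, adjusted p = 0.0057, limma). The call was lost without WT EB8 replicate 2 or the 5 libraries with a raised X level, each of which leaves 1 library in a group. At EB5 its adjusted p was 0.159, and 0.0191 in the blocked fit. The difference of the changes from ES to EB8 was 0.84 (95% interval 0.08 to 1.61, adjusted p = 0.165), and it passed in the blocked fit (0.0231).

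Tbp, which binds the TATA box and also serves RNA polymerases I and III, had no log2 difference between genotypes above 0.22 in size. It had 1821 and 1613 normalised counts in WT ES, 1458 and 1406 at EB4, 1286 and 1439.6 at EB5, and 1589 and 1419.8 at EB8. The mutant had 1977 and 1944, 1648 and 1679, 1398 and 1314, and 1259 and 1465. The groups were separate at ES and EB4 and overlapped afterwards. The log2 difference was 0.19, 0.22, -0.01 and -0.15 (SE 0.15), with adjusted p-values of 0.410 or more, and the sign at EB5 turned under upper-quartile (0.05) and quantile (0.07) scaling. Tbp fell by 0.53 from ES to EB8 in the mutant (adjusted p = 0.0132, limma), not in WT (-0.19, 95% interval -0.51 to 0.13), and the difference of the changes was -0.34 (adjusted p = 0.332). The mutant call was lost without either ES library (0.0701 and 0.0583) or EB8 replicate 1 (0.101).

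Taf10, a histone-fold subunit of both TFIID and SAGA, had a negative log2 difference at each stage. WT had 1452 and 1649.6 normalised counts at ES, 2414 and 2043 at EB4, 1837 and 1985 at EB5, and 1569.9 and 1625 at EB8. Taf4a-/- had 1474 and 1359, 2088 and 1123, 1705 and 1175, and 1511 and 1004. In each mutant group replicate 2 was the lower, and at the 3 embryoid body stages it stood well below replicate 1. The log2 difference was -0.13, -0.54, -0.43 and -0.38 (SE 0.28), with adjusted p-values of 0.283 or more. Without strand in the library kit, reads of Taf10 cannot be told from those of Ilk, whose exons cover 45.9% of the exon bases of Taf10 on the opposite strand. Ilk itself was listed at 27.2 to 144 normalised counts.

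Taf9b, the X-linked paralogue of Taf9, had the lowest counts of the 10. WT had 61.9 and 151 normalised counts at ES, 59.2 and 53.6 at EB4, 124 and 97.7 at EB5, and 89.3 and 96.3 at EB8. Taf4a-/- had 65.6 and 76.5, 81.8 and 105, 114 and 185, and 192 and 218. The genotypes were separate at EB4 and EB8, and the higher ES value of WT came from the library with a raised X level. Taf9b was the only member to rise along the course, by 1.52 from ES to EB8 in the mutant (SE 0.41, adjusted p = 0.0127, limma), against -0.06 in WT (95% interval -0.96 to 0.84). The difference of the changes was 1.58 (95% interval 0.31 to 2.85, adjusted p = 0.118). At EB8 the genotypes differed by 1.13 on the log2 scale (adjusted p = 0.0668, and 0.0491 in the blocked fit). After the X level of each library was subtracted, the log2 values at EB8 were 6.64 and 6.78 in WT and 7.79 and 7.36 in the mutant, again without overlap. The rise in the mutant was lost without ES replicate 1 (0.0758) or EB8 replicate 2 (0.0671).

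Taken over the whole course, from ES to EB8, 2 members fell in WT (Taf4b and Taf7), where 46.8% of all genes were called and 22.8% fell. In Taf4a-/- 4 fell (Taf4b, Taf12, Taf13 and Tbp) and Taf9b rose, where 37.7% were called, 18.0% as lower and 19.7% as higher. Taf12 and Taf13 fell in the mutant by 0.74 (adjusted p = 0.0114, limma) and 0.78 (0.0263). Their changes in WT were -0.48 (0.0659, and 0.0484 in the blocked fit) and -0.27 (0.390), since the WT values at EB8 stood above those at EB4 and EB5. For Taf12 the mutant call was lost without ES replicate 1 (0.0715) or EB8 replicate 1 (0.0981), and for Taf13 without either ES library (0.153 and 0.0570) or EB8 replicate 1 (0.155). No member passed from EB4 to EB5 in WT (3.73% of all genes) or in the mutant (2.51%), and DESeq2 called 0 as well. In limma 2 members and 2387 genes in WT, and 1 member and 2630 genes in the mutant, had an unadjusted p under 0.05. From EB5 to EB8 Taf4b alone passed in WT (10.4% of all genes, 4.62% as lower). In the mutant 0 members passed in that step (0.738%) in limma or DESeq2, and 0 members and 2065 genes had an unadjusted p under 0.05. For the difference between genotypes in the change, 0 members passed in limma over the whole course (7.29% of all genes), and DESeq2 called 1. In limma 2 members and 4045 genes had an unadjusted p under 0.05 for it. From EB5 to EB8 0 passed in limma (0.781% of all genes) and in DESeq2, with 1 member and 1568 genes at an unadjusted p under 0.05 in limma. Thus in limma without the block no call made in a single genotype was shown to differ between genotypes. In the blocked fit the change of Taf7 differed between genotypes (adjusted p = 0.0231, limma). There Taf7 was called as falling in both genotypes, so this was not a call in a single genotype. Leaving out the 4 mutant libraries with a raised chromosome 11 level leaves 1 mutant library at each stage. The 5 mutant calls over the whole course therefore could not be judged without them.

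**Figure D5:**
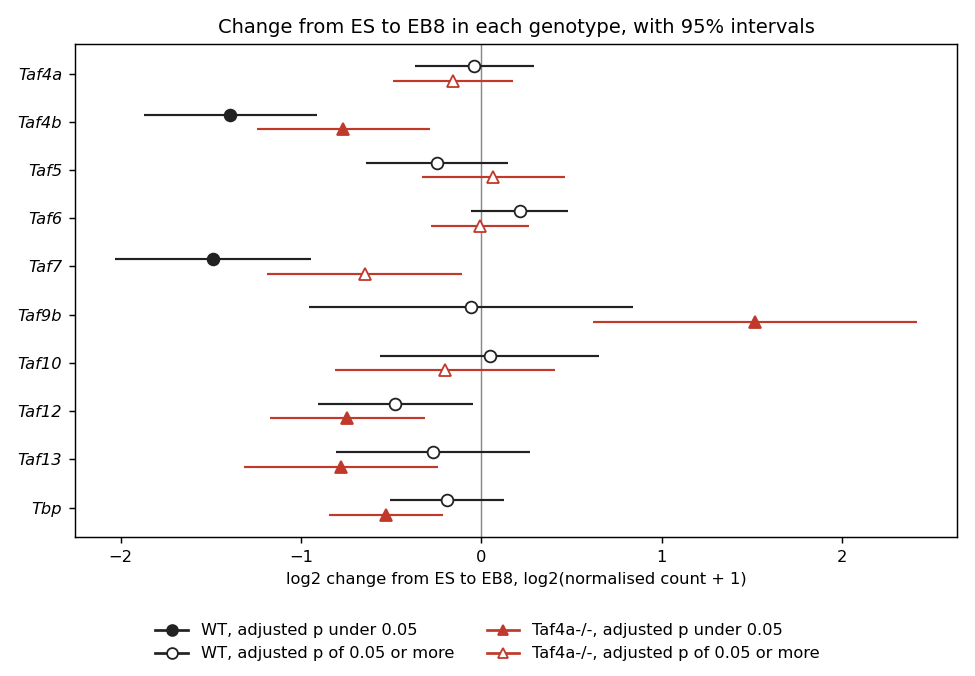
Log2 change from ES to EB8 (horizontal axis) for each gene in WT (circles) and Taf4a-/- (triangles), with unadjusted 95% intervals, filled where the adjusted p was under 0.05. Taf4b and Taf7 fall in WT, and Taf4b, Taf12, Taf13 and Tbp fall and Taf9b rises in the mutant.

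Per kb of exon, averaged over the 16 libraries, Taf7 had the highest level (1056 normalised counts per kb), followed by Taf6 (663), Taf4a (437), Taf5 (409) and Taf10 (355). Taf13 (231), Taf12 (198), Taf4b (182), Tbp (115) and Taf9b (35.0) followed. The levels depend on the annotated length. The exons of Tbp add up to 13399 bases, of which 19.3% overlap Pdcd2 on the other strand. Those of Taf10 add up to 4584 bases, of which 45.9% overlap Ilk on the other strand. With the length of the longest transcript that carries a CCDS tag Taf6 came before Taf7.

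The remaining TFIID subunits and TBP paralogues, Taf1, Taf2, Taf3, Taf8, Taf9 (with 2 identifiers that share exons), Taf11, Taf7l and Tbpl1, were tested as 9 rows. Between genotypes 0 of 9 passed in limma at ES, EB4 and EB5 (0, 1 and 1 had an unadjusted p under 0.05, as had 1846, 3668 and 3342 genes). At EB8 1 passed, Taf7l, the X-linked germ-line paralogue of Taf7, where 22.9% of all genes were called. Taf7l had 53.6 and 37.1 normalised counts in WT EB8 and 561 and 503 in the mutant, a log2 difference of 3.55 (SE 0.88, adjusted p = 0.0128, limma). The median log2 difference of the 9 rows was 0.17, 0.07, -0.01 and -0.16 at the 4 stages. Taf2 and Taf3, as examples, differed by 0.14 and 0.18 at ES and by 0.00 and -0.11 at EB8. Taf1, on the X chromosome, had 3668 and 5894 normalised counts in WT ES and 5882 and 7858 in mutant ES, and in both genotypes the library with the raised X level had the higher value. From ES to EB8 Tbpl1 rose in WT and Taf8 and Taf7l fell (46.8% of all genes were called), while in the mutant Taf7l rose and Taf8 fell (37.7%). The less abundant identifier of Taf9, ENSMUSG00000078941, fell in both (-0.82, adjusted p = 0.0044 in WT, and -0.67, 0.0167 in the mutant, limma). The more abundant, ENSMUSG00000052293, did not pass (0.06, 0.819 in WT, and -0.40, 0.101 in the mutant).

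Of the SAGA subunits 15 were tested, and 0 passed between genotypes in limma at ES, EB4 and EB5 (0, 2 and 2 had an unadjusted p under 0.05). Over all genes tested 0%, 6.12%, 4.34% and 22.9% were called at ES, EB4, EB5 and EB8. At EB8 Ccdc101, which reads histone methylation, was higher in the mutant by 0.72 (415 and 349 normalised counts in WT, 667 and 589 in the mutant, adjusted p = 0.0304, limma). Tada1 was lower by 1.21 (1030.2 and 1129 against 412 and 526, adjusted p = 0.0209). From ES to EB8 4 SAGA genes rose and 3 fell in WT, where 46.8% of all genes were called. In the mutant 1 rose and 2 fell, where 37.7% of all genes were called. The 3 mutant calls were Usp22, Kat2a and Atxn7l3, which lie on chromosome 11, and each was called in the same direction in WT. These 3 and Taf5l, on chromosome 8, did not pass between genotypes at any stage (adjusted p 0.234 or more, limma). The median log2 difference of all 15 SAGA genes between genotypes ran from 0.25 at ES to 0.0011 at EB8.

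The genes whose log2 values over the 16 libraries were most like those of Taf4a, by Pearson correlation among all genes tested, were Lrsam1 (r = 0.89), Drg1 (0.89) and Polr2a (0.87). Lrsam1 had a mean of 548 to 609 normalised counts in the WT groups and 718 to 808 in the mutant groups, without overlap of these means. Polr2a, the large subunit of RNA polymerase II, had 9089.8 to 22556 normalised counts in the 8 WT libraries and 23052 to 36048 in the 8 mutant libraries. In each mutant group replicate 1, which had the raised chromosome 11 level, held the higher value of Taf4a, Lrsam1, Drg1 and Polr2a. The part of these libraries in the likeness was not tested. The genes most like Taf4b were Zmym1 (r = 0.96), Mrps18b (0.95) and Prdx1 (0.95). Zmym1 went from 1353 ± 288 (SD, n = 2) in WT ES to 602 ± 110 in WT EB8 and from 1906 ± 56.6 to 990.2 ± 5.22 in the mutant.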

How the data were processed

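Poly-A RNA from 16 mouse libraries (TruSeq RNA v2, a kit that does not mark strand, single-end 54 base reads, GAIIx) was processed by the authors. According to the study's methods and the submitters' processing notes, reads were aligned to mm9 with TopHat2 2.0.10, counted with HTSeq 0.5.4p3 and scaled with DESeq2 1.0.19. The processing notes also list CASAVA 1.7 and 1.8. The annotation release and strand setting are not given in the sources used here. The deposited values are a normalised signal, that is, each gene's read count over the size factor that DESeq2 gave its library. Every value (100%, tolerance 0.01) was a whole number of steps of 1 read, which gave the reads behind it (22442118 to 40711826 per library). PCR copies can count repeatedly, so depth bears on counting error only.

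The 10 members and the lists (other TFIID subunits, SAGA, cell type markers) were chosen with earlier results of these data known. Groups follow the labels. limma 3.58.1 (R 4.3.3) was fitted to log2(normalised count + 1) with a mean for each of 8 groups over 16 libraries, eBayes with trend, 8 residual and 4.27 prior degrees of freedom, for the 16124 genes whose mean normalised count was 10 or more. Adding 1 understates the change of low genes. Adjusted p-values are Benjamini-Hochberg over these genes, with a threshold of 0.05. The 14 comparisons were genotypes at each stage, stage steps in each genotype, and differences of stage changes. Comparisons share libraries. Positions and lengths came from GENCODE M1 (NCBIM37), where 27603 of 27807 identifiers were found and 204 were not. The genes named are the members, listed genes past the threshold between genotypes or the first in list order, and the 3 genes most like Taf4a and Taf4b. Ilk and Eif2s3y were named after their values were seen. Promoters came from RefSeq (GRCm38.p6). Alternatives included edgeR 4.0.16 and DESeq2 1.42.0 on the recovered reads. Genes that DESeq2 left without an adjusted p stayed so. The test was checked on simulated data. Replicate numbers paired libraries within Taf4a-/- (deviations of same-numbered libraries correlated at 0.23 to 0.42, all 6 pairs of stages over 0.1) and among WT embryoid bodies (0.52 to 0.61, 3 pairs), but not WT ES with these (-0.18 to -0.05) or the genotypes (-0.21 to 0.37, 3 of 16 over 0.1). The pairing comes from the data, as the labels give no line. The blocked fit, added after this was seen, has a term for the number in Taf4a-/- and another in WT embryoid bodies. P-values measure the spread between 2 libraries of a group. The labels do not give the lines of the WT embryoid body libraries, none of which matched WT ES replicate 2 in sex-linked expression. Their spread may therefore be within 1 line rather than between lines.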

Additional observations from a re-analysis of the deposited data

Results flagged for a closer look

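Taf7l, the X-linked germ-line paralogue of Taf7, changed in opposite directions in the genotypes between ES and EB8, and the difference of the changes passed its own test: 4.95 on the log2 scale (SE 1.25, adjusted p = 0.0334, limma). It went from 151 and 365 normalised counts to 53.6 and 37.1 in WT (log2 change -2.37, adjusted p = 0.0427) and from 40.7 and 189 to 561 and 503 in Taf4a-/- (2.58, adjusted p = 0.0363). At EB4 the values were 32.9 and 84.7 in WT and 32.7 and 159.5 in the mutant, and at EB5 104 and 39.5 against 162 and 434. In ES cells the library with the raised X chromosome level held the higher value in each genotype, and in the mutant it did so at EB4 and EB5 as well. At EB8 the mutant library without a raised X level (561) was the higher. The part of the X level in the difference was not tested. The alternative settings were applied to the members only, so the calls of Taf7l were not recomputed under them.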

How the results depend on the processing

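The number of members called in each of the 14 comparisons was recomputed under 16 other settings, and 184 of 224 counts stayed within 1.5 times the reported one. DESeq2 called 2 members between genotypes at ES (0 reported), 4 at EB4 (2 reported), 1 at EB5 (0 reported) and 5 at EB8 (3 reported), 1 from ES to EB4 in Taf4a-/- and 1 for the genotype difference in the ES to EB8 change (0 reported for both). At EB4 1 member was called with no filter on low counts, and 0 when the 2 groups were fitted alone, at a threshold of 0.01 or without the 5 libraries with a raised X level. At EB5 1 member was called with a pseudocount of 5, a minimum mean of 50, upper-quartile rescaling or quantile normalisation. At EB8 5 were called under upper-quartile rescaling, 6 under quantile normalisation and 1 without the 5 libraries. Fitting the compared groups alone left 0 from ES to EB4 and 0 from EB5 to EB8 in WT (2 and 1 reported). The threshold of 0.01 left 1 and 0 there and 0 of 5 from ES to EB8 in Taf4a-/-. Without the 5 libraries 1, 0 and 0 remained called in these comparisons. Leaving out 1 library gave 0 to 1 calls between genotypes at EB4 and 2 to 3 at EB8, 0 to 2 from ES to EB4 and 0 to 1 from EB5 to EB8 in WT, 0 to 4 from ES to EB8 in Taf4a-/-, and 0 to 1 for the genotype difference in that change. A library left alone in its group, as each mutant group has without the 5 libraries, was assumed to vary like the other groups. Of the values of 26 single results, 364 of 416 under the other settings kept their direction and side of the threshold, 45 lost it, 6 gained it and 1 turned. With 1 library left out, 75 of 104 kept it, 28 lost it, and 1 turned: Taf4b between genotypes at EB5 was -0.0033 without WT EB5 replicate 1 (0.23 reported), and the same without the 3 libraries with a raised chromosome 8 level. Upper-quartile rescaling moved the median of all genes to 0.11 between genotypes at EB8 (-0.029 reported) and to 0.14 from ES to EB8 in Taf4a-/- (0.018 reported), beside member medians of 0.47 and -0.24. With transcript lengths in place of all exon bases, a choice of which the CCDS form was made after seeing the data, the Taf4b share was 27.3% in WT EB4, 34.7% in Taf4a-/- ES and 25.3% in Taf4a-/- EB5. Of 3 settings added after seeing the data, leaving out the 3 WT libraries with a raised chromosome 8 level leaves 1 WT library at each embryoid body stage. Calls that involve these WT groups cannot be judged from it. Leaving out the 4 mutant libraries with a raised chromosome 11 level gave 1 from ES to EB4 and 0 from EB5 to EB8 in WT. It leaves 1 mutant library at each stage, so calls that involve the mutant cannot be judged from it. The replicate block where numbers pair (Taf4a-/- and WT embryoid bodies) gave 2 at EB5, 1 from EB4 to EB5 in WT and 1 for the genotype difference in the ES to EB8 change, and ended no call. A replicate block over all groups gave 3 calls at EB4, 1 at EB5 (0 reported), 6 from ES to EB8 in Taf4a-/- and the reported number elsewhere. A replicate block within genotype gave 3 at EB4, 2 at EB5 (0 reported), 1 from EB4 to EB5 in WT (0 reported) and 1 for the genotype difference in the ES to EB8 change. A member had 50 reads or more in each library, and each group had 2 libraries.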
